A study of Mus musculus with 18 samples.

Results

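The subunits of the mitochondrial respiratory chain and of ATP synthase were read across mouse ovaries that ranged from normal to cystic, luteinised and tumour-bearing. Members were chosen by name: every probe set whose platform annotation gives 1 gene symbol that begins with Nduf, Uqcr, Atp5 or Cox followed by 4, 5, 6, 7 or 8, with Sdha to Sdhd, Cycs and Cyc1. This gave 59 of the 6137 genes named on the chips, and 68 of the 13179 probe sets on 2 chip types. By complex, 20 genes belong to complex I, 2 to its assembly, 3 to complex II, 8 to complex III, 12 to complex IV and 13 to complex V, and the last is cytochrome c. The rule reaches only subunits coded in the nucleus, and Sdha and the subunits coded in mitochondrial DNA were not analysed here.

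The respiratory chain lies in the inner mitochondrial membrane. Complexes I and II take electrons from NADH and succinate, complex III passes them through cytochrome c to complex IV, and complex IV gives them to oxygen. Complexes I, III and IV pump protons, and complex V, the ATP synthase, lets the protons flow back to make ATP. In steroid-making cells of the ovary the mitochondrion also holds the enzyme that cuts the side chain of cholesterol, the first step of steroid synthesis.

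Total RNA of mouse ovary had been hybridised to chip A and chip B, with 1 array of each chip type for each of 9 conditions, 18 arrays in all. Wild-type ovaries came from CF-1 mice at 2 and 5 months and from CF-1xC57BL/6 F1 hybrids at 2 and 5 months. The transgenic ovaries were those of LHCTP mice, which oversecrete luteinising hormone (LH). Both strains are described as cystic at 2 months, while at 5 months the CF-1 ovary is described as a granulosa cell tumour and the hybrid ovary as a luteoma. A ninth ovary, of CF-1 transgenic mice of 5 months given hCG (a hormone read by the LH receptor), is described as a luteoma too. As background from knowledge of this line, the transgene codes for an LH beta subunit with an added carboxy-terminal peptide and is driven in the pituitary, so the ovary meets the hormone and not the transgene. The tumour's chip B description states 2 months, against 5 months in its title and source, and the latter age was used. No label names separate animals or pools, and no condition has a second array of a chip type, so each p-value measures only the spread between single samples of different conditions. In such bulk tissue, fewer cells of a type and less RNA per cell cannot be told apart.

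Values are background-subtracted fluorescence intensities brought to a common trimmed mean within each chip type, here called units. Before scaling, the trimmed means differed by up to 1.94-fold on chip A, and after it the brightest value of an array lay between 21588.9 and 43629.7 units on chip A and between 21550.9 and 55939.3 on chip B. Values were raised to a floor (183.8 units for chip A, 290.7 units for chip B) before log2 was taken, and 2 floors were the detection limit (367.6 and 581.4 units). A probe set was tested if it reached that limit on at least 2 of 9 arrays, which held for 6408 probe sets in all, 56 of the 68 member probe sets and 51 of the 59 genes. Levels below are given before the floor and, apart from sums of cell type markers, compared only within a probe set. Those sums add probe sets of both chip types, so a single bright gene can carry them. The probe-set names of 38 members end in s and of 18 in f, which in the chip maker's naming mark sets that can also read related sequences, so reads from pseudogenes or close relatives cannot be told apart there.

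Most members were well measured, since 46 genes were at the detection limit on all 9 arrays. By complex, the tested genes were 17 of complex I, 2 of its assembly, 1 of complex II, 8 of complex III, 10 of complex IV, 12 of complex V and cytochrome c. The 8 genes with no tested probe set were Ndufa10, Ndufa11, Ndufb10, Sdhc, Sdhd, Cox6a2, Cox8b and Atp5d. A low signal there can also come from a probe set that reads its gene poorly, which cannot be told apart from a low level.

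Promoter sequences of members are shown first, because nuclear genes of the chain are known as targets of the transcription factors NRF1 and GABP, an ETS family factor, and because several members named below carry the letters of one or the other. Windows of 300 bases, 250 before and 50 after the transcription start, were taken from RefSeq models of GRCm38.p6 and searched on both strands. Of the 59 genes, 48 had a window, 52 windows in all. The NRF1 motif was in 10 of these windows (19.2%), against 4.60% of all 32851 windows. The ETS motif CCGGAAG was in 13 (25%), against 8.86% of all. The YY1 motif was in 3.85% against 0.852%, CCAAT in 34.6% against 37.4%, TATAAA in 9.62% against 13.6%, and CAAGGTCA, an element read by both the ERR and SF-1 receptors, in 3.85% against 1.56%. None of these motifs contains another, the windows were not matched for base composition, and a match is a description and not a site. Below, 60 bases upstream of the start are given 5′ to 3′ on the gene's strand for named members, with the match in capitals. The first 3 hold an NRF1 match and the last 3 an ETS match, in Ndufa5 and Ndufb6 on the opposite strand.
Atp5k, chr5:108434415-108434474, minus strand: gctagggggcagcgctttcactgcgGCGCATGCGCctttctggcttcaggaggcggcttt
Ndufa5, chr6:24527691-24527750, minus strand: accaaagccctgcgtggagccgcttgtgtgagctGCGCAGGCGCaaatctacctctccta
Ndufaf4, chr4:24897945-24898004, plus strand: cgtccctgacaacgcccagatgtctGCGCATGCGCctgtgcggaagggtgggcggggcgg
Ndufaf1, chr2:119662835-119662894, minus strand: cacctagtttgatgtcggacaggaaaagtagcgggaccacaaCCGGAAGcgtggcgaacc
Ndufb6, chr4:40279612-40279671, minus strand: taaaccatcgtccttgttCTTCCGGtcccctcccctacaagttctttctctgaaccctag
Ndufs3, chr2:90904722-90904781, minus strand: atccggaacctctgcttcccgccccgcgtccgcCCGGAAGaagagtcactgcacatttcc

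Across the 9 ovaries the chain varied little. For the 49 member probe sets at the detection limit on all arrays, the highest array stood a median of 1.70-fold above the lowest (range 1.21 to 3.01), and 38 of them (77.6%) varied less than 2-fold. Among all 4236 tested probe sets at that limit the median was 1.96-fold and 52.5% varied less than 2-fold. The smallest ranges were those of Cox5a, Ndufs3, Ndufb5 and Ndufs4, and the largest those of Atp5k, Ndufa5, Uqcrb and Ndufaf1. Cox5a, a structural subunit of cytochrome c oxidase, was the steadiest member, at 5566, 6011, 6051 and 5243 units in wild-type ovaries (CF-1 at 2 and 5 months, then the hybrid at 2 and 5 months, the order used throughout). Its transgenic values were 5033 in the CF-1 cystic ovary, 5916 in the tumour, 5253 in the hybrid cystic ovary and 5009 in the hybrid luteoma, with 5782 after hCG. All 9 values thus lay within 1.21-fold.

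**Figure D1:**
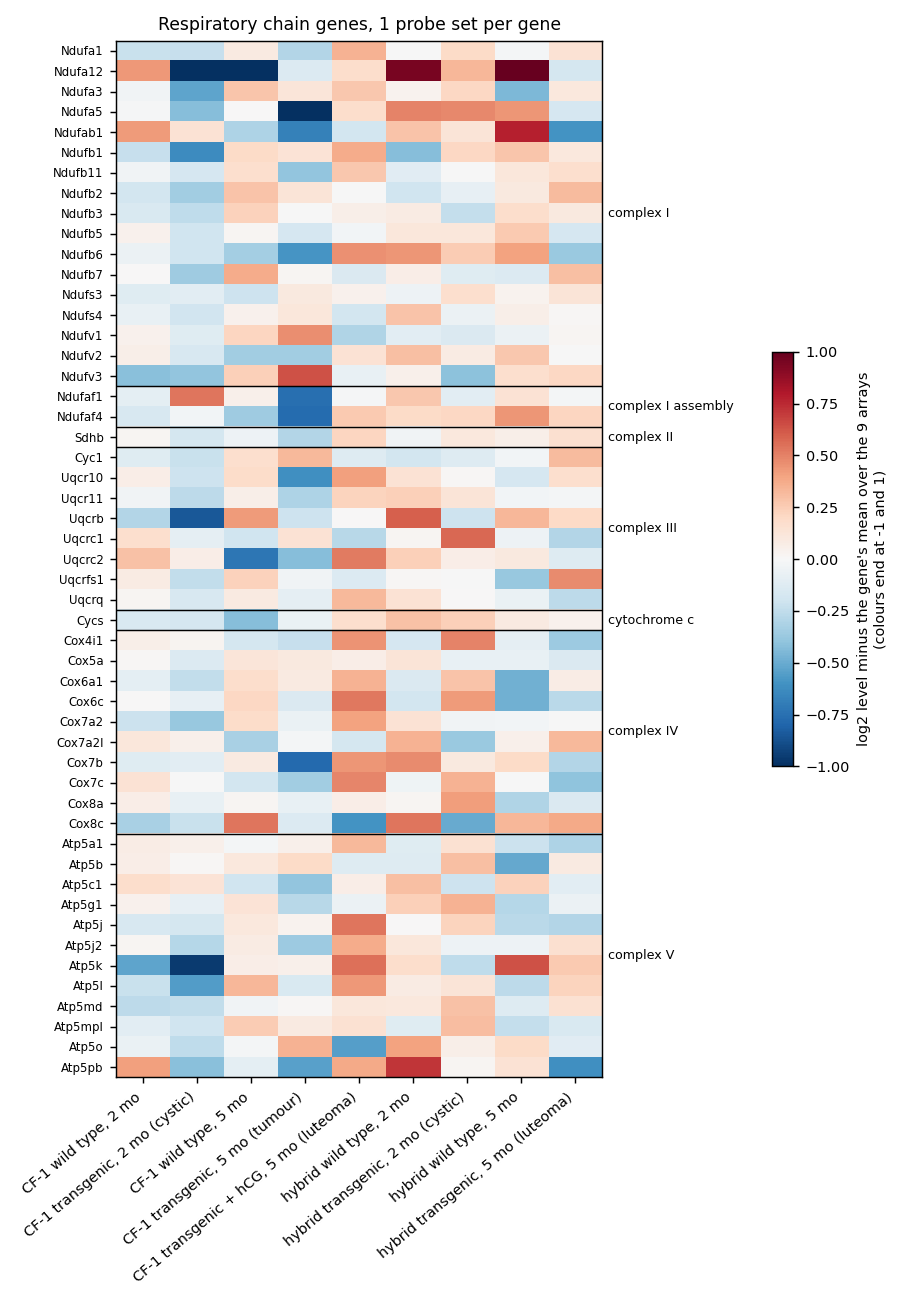
Log2 level of the 51 tested member genes (rows, grouped by complex) on the 9 conditions (columns), each minus the gene's mean over the 9, with colours ending at 1 log2 unit either way. Few rows reach the ends of the colour scale, and the CF-1 cystic column is mostly below the gene means.

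Between transgenic and wild-type ovaries no member passed the test. The fit of genotype, strain and age over the 8 untreated conditions (limma, Benjamini-Hochberg over all tested probe sets, threshold 0.05) called 0 of 6408 probe sets (0%) and 0 of 56 members for genotype. At an unadjusted p under 0.05 there were 642 probe sets (10%) and 4 members (7.14%), with 0 members higher (4.68% of all were) and 4 lower (5.34% of all), namely Atp5pb, Ndufa5, Uqcrb and Cox7b. The fitted difference was above 0 for 19 of 56 members (33.9%), against 50% of all tested. Over 1 probe set per gene the median was −0.08 on the log2 scale, with 32 of 51 genes below 0, against 0.00 for all tested probe sets. By complex this median was −0.11 for complex I, −0.15 for the assembly factors, −0.05 for Sdhb, −0.13 for complex III, −0.07 for complex IV, −0.06 for complex V and 0.06 for cytochrome c.

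Counted pair by pair, 12 members (21.4%) were lower in the transgenic ovary in all 4 pairs of the same strain and age, against 9.68% of all tested probe sets, and 2 (3.57%), Ndufs3 and Atp5md, were higher in all 4, against 9.21%. The 12 were Ndufa5, Ndufab1, Ndufb3, Ndufb5 and Ndufb6 of complex I, Uqcrb and Uqcrq of complex III, Cox5a of complex IV, and Atp5c1, Atp5k, Atp5pb and the chip B probe set of Atp5a1 of complex V. Several had a near tie in 1 pair. On the log2 scale these were Ndufb5 (−0.002) and Ndufa5 (−0.02) in the hybrid cystic pair and Atp5c1 (−0.03) in the CF-1 cystic pair. In the tumour pair they were Atp5k (−0.01), Cox5a (−0.02) and Atp5a1 (−0.03). Ndufs3 (0.01) and Atp5md (0.02) were also near ties in the CF-1 cystic pair. This count was not repeated with the other scalings. No member had its 4 transgenic values wholly below or wholly above its 4 wild-type values (2.29% and 1.86% of all tested did). Leaving out the tumour brought the genotype calls to 7 probe sets, leaving out the CF-1 wild type of 2 or 5 months to 2 and 1, and none of these was a member. With trend and robust variances limma called 8 probe sets, again with no member. With the 4 pairs of strain and age as a block it called 0, with 623 probe sets (9.72%) and 3 members (5.36%) at an unadjusted p under 0.05.

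**Figure D2:**
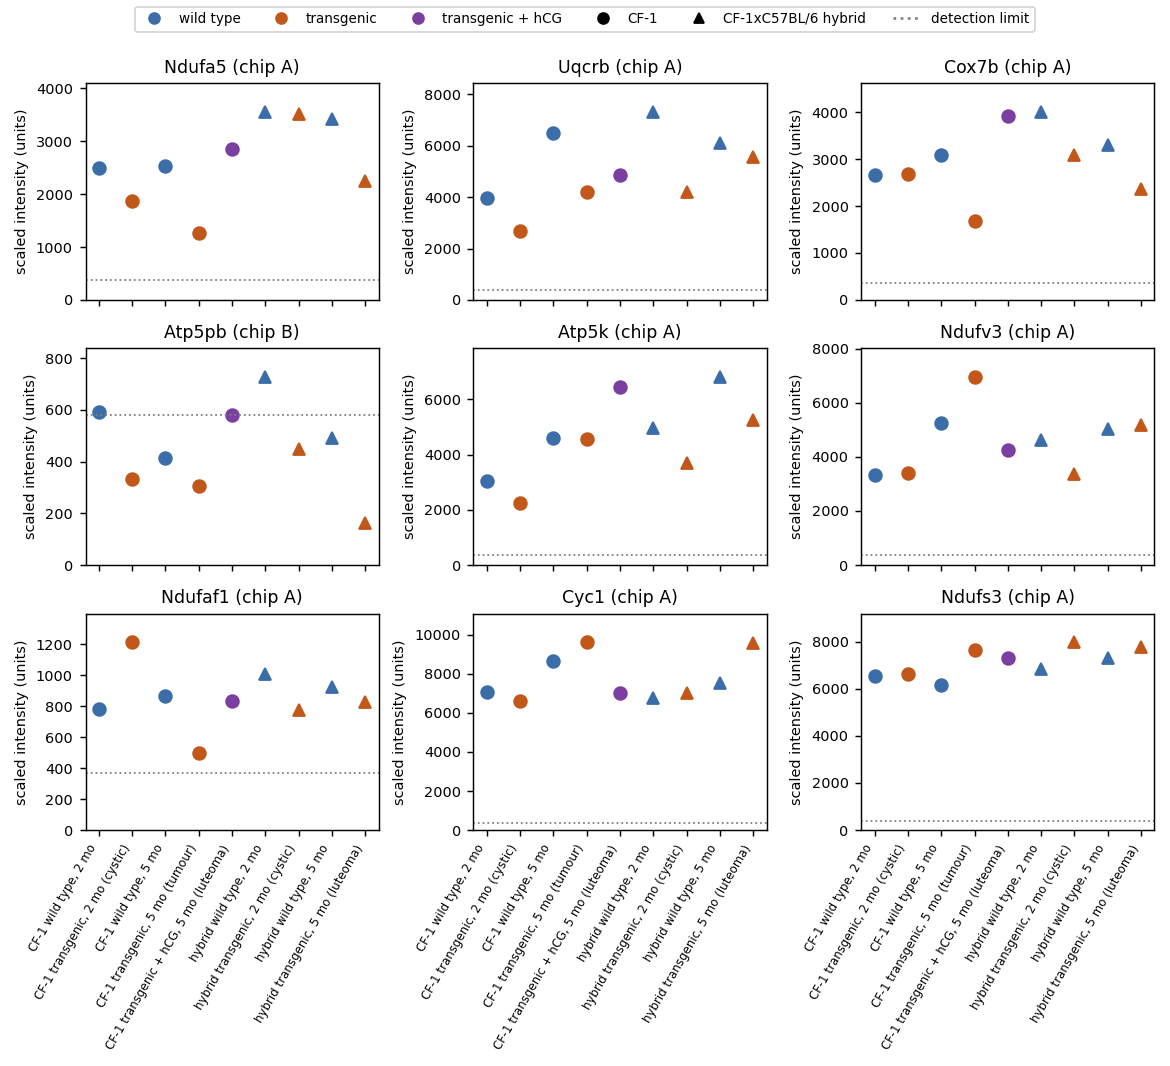
Scaled intensity (linear axis from 0, in units) of 9 named members on each of the 9 arrays, with wild type in blue, transgenic in orange and the hCG-treated condition in purple, circles for CF-1 and triangles for the hybrid, and the detection limit dotted. Transgenic and wild-type points overlap in every panel, and Ndufa5 and Cox7b are lowest in the tumour.

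In complex I, Ndufa5, a subunit of the arm that oxidises NADH, read 2501, 2527, 3561 and 3413 units in wild-type ovaries (3001 ± 565, SD, n = 4). Transgenic ovaries read 1878, 1263, 3513 and 2242 units (2224 ± 950, SD, n = 4), and the hCG-treated luteoma 2845. The tumour was the lowest array, and the hybrid cystic ovary lay among the wild types. The genotype difference was −0.51 on the log2 scale (SE 0.19, adjusted p = 0.468).

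Ndufab1, the mitochondrial acyl carrier protein that is also a complex I subunit, was dim, at 497, 299, 452 and 633 units in wild type and 410, 232, 405 and 245 in transgenic ovaries, with 326 after hCG. It reached the detection limit on 5 arrays. The genotype difference was −0.54 (SE 0.26, adjusted p = 0.556), and the groups overlapped. It was −0.25 without the hybrid wild type of 5 months and −0.31 with the floor doubled. Ndufb5, a membrane-arm subunit, read 5791, 5674, 6074 and 6739 units in wild type against 4892, 4991, 6066 and 4995 in transgenic ovaries and 5512 after hCG. The hybrid cystic ovary alone of the transgenic arrays sat at the wild-type level (genotype −0.22, adjusted p = 0.699).

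Ndufs3, a subunit of the arm that oxidises NADH, was one of the 2 members higher in all 4 pairs. It read 6555, 6150, 6857 and 7304 units in wild type (6717 ± 487, SD, n = 4), 6611, 7626, 7994 and 7790 in transgenic ovaries (7505 ± 615, SD, n = 4) and 7327 after hCG. The difference was 0.16 (SE 0.14, adjusted p = 0.783), and the CF-1 cystic ovary was close to its wild type. Ndufs4, an accessory subunit of the same arm, stayed between 7121 and 9872 units on all 9 arrays.

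In complex III, Uqcrb, a small subunit close to the ubiquinone site, read 3947, 6513, 7326 and 6102 units in wild type (5972 ± 1442, SD, n = 4). Transgenic ovaries gave 2691, 4194, 4197 and 5568 units (4163 ± 1175, SD, n = 4), and the hCG-treated luteoma 4872. It was lower in all 4 pairs, while the CF-1 wild type of 2 months lay among the transgenic values (genotype −0.53, SE 0.20, adjusted p = 0.468). Uqcrq, another small subunit, read 8839, 9257, 9636 and 8334 units in wild type against 7782, 8170, 8716 and 7276 in transgenic ovaries and 10880 after hCG. The hCG-treated luteoma was the highest of the 9 for Uqcrq (genotype in the untreated arrays −0.18, adjusted p = 0.772).

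In complex IV, Cox7b, a small accessory subunit, read 2661, 3080, 4011 and 3298 units in wild type (3262 ± 565, SD, n = 4) and 2680, 1684, 3089 and 2359 in transgenic ovaries (2453 ± 594, SD, n = 4). The hCG-treated luteoma read 3925 units, close to the highest wild type, and the tumour was lowest. The genotype difference was −0.43 (SE 0.18, adjusted p = 0.490), with the transgenic ovary lower in 3 of 4 pairs.

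In complex V, Atp5pb, the b subunit of the stalk that holds the catalytic head in place, had the lowest genotype p of all members and was also among the dimmest. It read 591, 415, 728 and 492 units in wild type (556 ± 135, SD, n = 4), 333, 305, 451 and 161 in transgenic ovaries (312 ± 119, SD, n = 4) and 579 after hCG. Only 2 of 9 values reached the detection limit and the hybrid luteoma lay under the floor, so the log2 difference of −0.68 (SE 0.17, adjusted p = 0.269) is one of floored values. With the floor doubled it was −0.09 and with a floor of 20 units −0.89, and the age difference of this gene, −0.46, was −0.09 with the floor doubled. Atp5c1, the gamma subunit that turns inside the head, was lower in all 4 pairs as well, at 10066, 7769, 11012 and 10453 units in wild type against 9827, 6791, 7737 and 8288.

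Genes with more than 1 probe set did not always move alike. Atp5a1, the alpha subunit of the catalytic head, read 13422, 9308, 11304 and 10397 units in wild type and 11176, 9136, 10648 and 8635 in transgenic ovaries on chip B, lower in all 4 pairs. On chip A its set read 12841, 12008, 11236 and 10500 against 12639, 12658, 13540 and 9864, lower in 2 of 4 pairs. The 2 sets of Cox7a2l, a factor that joins complexes III and IV, differed too, by −0.06 and −0.74 in the CF-1 cystic pair and by 0.28 and −0.36 in the hybrid luteoma pair.

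Complex II and cytochrome c showed little. Sdhb, the iron-sulphur subunit of succinate dehydrogenase, read 7973, 7580, 7678 and 8190 units in wild type (7855 ± 279, SD, n = 4), 6978, 6428, 8445 and 8772 in transgenic ovaries (7656 ± 1131, SD, n = 4) and 9142 after hCG. The CF-1 transgenic ovaries lay below and the hybrid ones above all wild types; the genotype difference was −0.05. Sdhc, a membrane anchor of complex II, reached the detection limit only after hCG, at 374 units, and otherwise lay between 106 and 261. Sdhd, the other anchor, never reached it (−101 to 100 units).

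Cycs, which carries electrons from complex III to IV and also takes part in apoptosis, has 2 chip B sets. The brighter read 5236, 4325, 7115 and 6205 units in wild type (5720 ± 1206, SD, n = 4), 5140, 5547, 6855 and 6008 in transgenic ovaries (5887 ± 736, SD, n = 4) and 6524 after hCG. The second read 2911, 2550, 4439 and 3526 units, then 3754, 1888, 4085 and 2458, and 4182. In the tumour pair these 2 sets differed in sign, by 0.36 and −0.43 on the log2 scale.

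The isoforms that other tissues use were at or near background. Cox6a2 and Cox8b, the forms of heart and skeletal muscle, never reached the detection limit: the chip A set of Cox6a2 lay between −529 and 89.6 units, its chip B set between −483 and 255, and Cox8b between −174 and 125. Their widespread counterparts were among the brightest probe sets of the arrays. Cox6a1 read 21629, 26059, 20889 and 16554 units in wild type, 19451, 24616, 28242 and 24361 in transgenic ovaries and 29485 after hCG.

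Cox8a read 18449, 17836, 17861 and 14285 units in wild type, 16718, 16689, 23572 and 15883 in transgenic ovaries and 18462 after hCG. Cox4i1, the form of its subunit found in most tissues, read 18776, 15980, 16086 and 16981 units (16956 ± 1294, SD, n = 4), then 18347, 15409, 25391 and 14028 (18294 ± 5062, SD, n = 4), and 24597. In all 3 of these genes the hybrid cystic ovary was the highest of the untreated arrays. Cox7a2 read 8076, 10608, 10351 and 9169 units in wild type, 7211, 8960, 9132 and 9332 in transgenic ovaries and 12365 after hCG. Cox8c, known as a testis form, was dim, at 222, 403, 404 and 350, then 238, 252, 196 and 362, and 169 units, with 2 of 9 values at the detection limit.

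Of striated muscle markers, 13 of 16 were measured and 5 tested, and Tnnt3, Tnni2, Mylpf and Atp2a1 were under the floor on all 9 arrays. Others were not: Ckm lay between 2339 and 4691 units and Actc1 between 1271 and 2781, above the detection limit on all 9, and Myoz1 reached 848. The brown fat markers Ucp1, Cidea and Elovl3, all 3 measured of a list of 5, were under it on all 9 as well. Cox4i2, Cox6b1, Cox6b2 and Cox7a1 were not analysed here.

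Age gave more unadjusted differences, in both directions, and again no member passed the test. In transgenic ovaries the age term sets the tumour and the hybrid luteoma against cystic ovaries, so age and progression cannot be told apart there. Of all tested probe sets 1 was called (0.0156%), which was no member, and 1252 (19.5%) had an unadjusted p under 0.05, as had 8 members (14.3%). Those higher at 5 months were Atp5k, Ndufv3, Ndufb2 and Cyc1 (9.63% of all tested were higher), and those lower were Atp5pb, Uqcrc2 and the second sets of Cycs and Ndufaf1 (9.91% of all were lower). The brighter sets of Cycs and Ndufaf1 differed less with age, by −0.14 and −0.30, and were not among these 8. The difference was above 0 for 25 members (44.6%) against 47.9% of all, with a median of −0.03 over genes against −0.02. Without the hybrid wild type of 5 months the age term called 254 probe sets, of which 0 were members, and 12 members (21.4%) had an unadjusted p under 0.05, against 26.3% of all tested. The median over genes was then 0.02, and 0.01 without the hybrid cystic ovary, so its sign was not fixed. Without any other single condition it called 0.

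Atp5k, the small e subunit of ATP synthase that helps its complexes pair, had the widest range among members at the detection limit on all 9 arrays, at 3043, 4589, 4964 and 6822 units in wild type (4855 ± 1553, SD, n = 4). Transgenic ovaries read 2265, 4556, 3686 and 5256 units (3940 ± 1289, SD, n = 4), and the hCG-treated luteoma 6436. Every 5-month ovary was above the 2-month ovary of its strain and genotype, every hybrid above its CF-1 counterpart, and every untreated transgenic ovary below its wild type. The fitted differences were 0.64 for age (SE 0.16, adjusted p = 0.156), 0.55 for the hybrid (SE 0.16, adjusted p = 0.527) and −0.31 for genotype (SE 0.16, adjusted p = 0.593).

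Ndufv3, an accessory subunit of the NADH-oxidising arm, read 3343, 5268, 4641 and 5019 units in wild type, 3407, 6968, 3359 and 5170 in transgenic ovaries and 4254 after hCG. The tumour was the highest of the 9, and the age difference was 0.61 (SE 0.20, adjusted p = 0.193). Ndufb2, a membrane-arm subunit, read 7217, 9981, 7141 and 8772 units, then 6454, 8978, 7763 and 10204, and 8174, higher at 5 months in all 4 pairs (0.41, SE 0.15, adjusted p = 0.221). Cyc1, the cytochrome c1 of complex III, was also higher at 5 months in all 4, at 7060, 8662, 6775 and 7550 units, then 6605, 9641, 7026 and 9605. The hCG-treated luteoma, although of 5 months, was at 7024 units for Cyc1, near the 2-month ovaries (age 0.36, SE 0.15, adjusted p = 0.251).

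In the other direction, Uqcrc2, a core protein of complex III, read 3116, 1538, 2994 and 2722 units in wild type, 2653, 1889, 2652 and 2325 in transgenic ovaries and 3633 after hCG (age −0.46, adjusted p = 0.253). The lowest 2 arrays were the CF-1 ovaries of 5 months, wild type and tumour, while the hCG-treated luteoma of that strain and age was the highest. For Atp5pb the age difference was −0.46 (SE 0.17, adjusted p = 0.209), with values given above.

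Between strains the members leaned towards the hybrid. The strain term called 2 of 6408 probe sets (0.0312%) and 0 members. At an unadjusted p under 0.05 it gave 505 probe sets (7.88%) and 6 members (10.7%), all higher in the hybrid (4.32% of all tested were higher, 3.56% lower): Ndufa5, Atp5k, Ndufaf4, Ndufb6, Ndufa12 and Ndufv2. The difference was above 0 for 42 of 56 members (75%) against 49.8% of all tested, and the median over genes was 0.14, with 40 of 51 above 0, against 0.00. Without the CF-1 cystic ovary this median was 0.08. By complex the hybrid was higher in 15 of 17 genes of complex I, 6 of 8 of complex III, 7 of 10 of complex IV and 8 of 12 of complex V. Leaving out the tumour left 1 called probe set for strain and leaving out any other condition left 0.

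Ndufa5 differed by 0.67 between strains (SE 0.19, adjusted p = 0.512), each hybrid ovary being above its CF-1 counterpart. Ndufaf4, an assembly factor of complex I, read 392, 343, 501 and 594 units in wild type, 429, 257, 505 and 508 in transgenic ovaries and 525 after hCG. All 4 hybrid values were above all 4 untreated CF-1 values, and 7 of 9 arrays were at the detection limit (0.59, SE 0.19, adjusted p = 0.604). Ndufb6, a membrane-arm subunit, read 2330, 1922, 3303 and 3210 units, then 2117, 1613, 2899 and 1879, and 3334 after hCG.

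In Ndufb6 the hybrid luteoma lay below the CF-1 ovaries of 2 months, and the strain difference was 0.48 (SE 0.17, adjusted p = 0.620). Ndufa12, an accessory subunit, read 1728, 365, 2479 and 3145 units, then 615, 1165, 1612 and 1136, and 1448, a range of 8.62-fold (strain 1.25, SE 0.50, adjusted p = 0.624). The CF-1 wild type of 5 months was the lowest and alone was under the detection limit. Without that array the strain difference was 0.63, and the remaining values still ran from 615 to 3145 units.

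The genotype difference did not pass a test of differing between strains or ages for any member. The interaction of genotype with strain called 0 probe sets (0%; 5.43% at an unadjusted p under 0.05) and that with age 0 (0%; 2.76% unadjusted). Among members the counts were 0 at both levels, and the lowest unadjusted p was 0.0549 with strain and 0.114 with age. With 3 residual degrees of freedom these tests have little precision.

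Single pairs of ovaries have no replicate, and the differences below are between 2 arrays, with no test. A member is counted when the arrays differ at least 1.5-fold and the brighter is at the detection limit. The tumour pair and the hCG pair share the CF-1 wild type of 5 months.

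The CF-1 cystic ovary stood slightly below its wild type in nearly the whole chain. The difference was below 0 for 48 of 56 members (85.7%), against 47.4% of all tested, with a median over genes of −0.15. All 8 genes of complex III, 15 of 17 of complex I, 8 of 10 of complex IV and 11 of 12 of complex V were lower. The size was small: 1 member was at least 1.5-fold higher (1.79%, against 8.38% of all), the brighter set of Ndufaf1 by 0.64, and 3 were lower (5.36%, against 7.18%), Ndufa12 by −1.49, Atp5pb by −0.83 and the second set of Cox7a2l by −0.74. The second, weak set of Ndufaf1 went the other way, by −0.36. This ovary was the lowest of the 9 for 13 members (23.2%), against 6.84% of all. Beside this, summed markers of smooth muscle were 22577 units in the cystic ovary against 35294 in its wild type, of oviduct and epithelium 15292 against 28741, and of red cells 43919 against 25691. Single bright genes gave much of these sums, Acta2 at 15509 against 22704 units, Ovgp1 at 10829 against 19169 and Hba-a1 at 24040 against 17450. Their part in the result was not tested.

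In the granulosa cell tumour most members read somewhat below their level in wild-type CF-1 mice of 5 months, with a difference below 0 for 38 of 56 members (67.9%) against 46.6% of all tested, and a median over genes of −0.17 against 0.01. Few differed much, and 6 members (10.7%, a share below the 13.8% of all tested) were at least 1.5-fold lower: Ndufa5 at 1263 against 2527 units, and on the log2 scale Cox7b by −0.87, the brighter set of Ndufaf1 by −0.81, Uqcr10 by −0.80, Cox8c by −0.67 and Uqcrb by −0.63. The weak set of Ndufaf1 was under the floor on both arrays. Ndufa12 was higher by 1.68 (1.79%, against 13.2%), its wild type being under the detection limit. Quantile normalization turned this split from 1 higher and 6 lower to 2 and 5.

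Uqcr10, a small subunit of complex III, read 11707 units in that wild type and 6714 in the tumour, and between 8907 and 13700 on the other 7 arrays. Against all 8 other arrays, 1 member was at least 1.5-fold lower in the tumour (3.9% of all tested were) and 0 were higher (3.18%). This was the brighter set of Ndufaf1, an assembly factor of complex I, at 783, 869, 1008 and 925 units in wild type, 1217, 497, 778 and 825 in transgenic ovaries and 832 after hCG. The tumour lay 1.57-fold below the next array, and with quantile normalization this member was not counted.

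The tumour was the lowest of the 9 for 14 members (25%, against 18.1% of all) and the highest for 4 (7.14%, against 21%), namely Ndufv1, Ndufv3, Cyc1 and a set of Cox7a2l. Ndufv1, the subunit that binds NADH, read 2259, 2545, 2044 and 2108 units in wild type, 2017, 3037, 1984 and 2229 in transgenic ovaries and 1784 after hCG. Beside this, the sum of 5 measured luteal markers of a list of 8 was 24256 units in the tumour and 45815 to 123057 on the other arrays, and that of 6 measured granulosa markers of 9 was 56958 against 27942 to 46012. Within that list Inhba, Inhbb, Fst and Nr5a2 were the highest of the 9 in the tumour, while Amh was the lowest, at 415 units, under the detection limit, and Inha read 14779 units against 19568 in the CF-1 wild type of 5 months. The 6 markers of oviduct and epithelium summed to 1446 units in the tumour and 18658 to 28741 in wild-type ovaries. Their part in the result was not tested.

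The hCG-treated luteoma leaned the other way. Against the same wild type, 9 members were at least 1.5-fold higher (16.1%, against 17.6% of all) and 1 was lower (1.79%, against 16.8%). The higher ones were Ndufa12 by 1.99, Uqcrc2 by 1.24, the weak set of Ndufaf1 by 1.16, Ndufb6 by 0.79, both sets of Cycs by 0.59 and 0.71, Cox7c by 0.67, Cox4i1 by 0.62 and Ndufaf4 by 0.61, and the lower one Cox8c by −1.13. Of these, the weak set of Ndufaf1 was under the floor in the wild type (40.3 units) and Cox8c under it after hCG (169 units), so the floor set the size of both differences. The brighter set of Ndufaf1 differed by only −0.06 in this pair. With quantile normalization the split was 6 and 1, and with scaling to a common median 5 and 2. The difference was below 0 for 19 members (33.9%) against 49.8% of all, and the median over genes was 0.17, or 0.08 with quantile normalization. This ovary was the highest of the 9 for 16 members (28.6%), against 12.8% of all. Its luteal markers summed to 123057 units, against 45815 to 100186 in wild-type ovaries, although Scarb1 of that list read 13474 against 21406 units in the CF-1 wild type of 5 months. Against the same wild type its red cell markers summed to 58374 against 29655 units, its fat cell markers to 5249 against 12839 and its macrophage markers to 32626 against 51551. Their part in the result was not tested. Its chip A array had the highest top value, 43629.7 units.

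In the hybrid cystic ovary the shift of the members depended on the scaling. In it, 3 members were at least 1.5-fold higher (5.36%, against 12.1%), Cox4i1 by 0.66, Ndufb1 by 0.63 and Cox6c by 0.61, and 5 were lower (8.93%, against 9.88%), Cox8c by −1.04, Uqcrb by −0.80, Cox7a2l by −0.72, Atp5pb by −0.69 and Ndufa12 by −0.62. The split became 1 and 5 with quantile normalization and 1 and 6 with scaling to a common median. The difference was below 0 for 34 members (60.7%, against 48.3%), with a median over genes of −0.04, which became −0.15 with quantile normalization (all tested −0.01), −0.14 with scaling to a common median (all tested −0.11) and −0.16 without the bright members described below. Red cell markers summed to 80454 units there, against 25691 to 29655 in wild-type ovaries, and their part in the result was not tested.

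In the hybrid luteoma 2 members were higher (3.57%, against 14%), Uqcrfs1 by 0.85 and Atp5b by 0.60, and 5 were lower (8.93%, against 19.4%): Ndufa12 by −1.47, Ndufab1 by −1.37, the weak set of Cox7c by −0.98, Ndufb6 by −0.77 and Ndufa5 by −0.61. With quantile normalization the split was 1 and 5, and with scaling to a common median 4 and 4. Uqcrfs1, the Rieske iron-sulphur protein of complex III, read 7919 units in the luteoma and 4382 to 6672 on the other 8 arrays. The difference was below 0 for 31 members (55.4%, against 54.8%), with a median over genes of −0.02, which became 0.07 with scaling to a common median, against −0.07 for all tested. No member stood at least 1.5-fold above or below the other 7 arrays in both luteomas (0.187% and 0.218% of all tested did).

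The hybrid wild type of 2 months was the highest of the 9 for 14 members (25%), against 9.05% of all tested, and the lowest for 0.

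**Figure D3:**
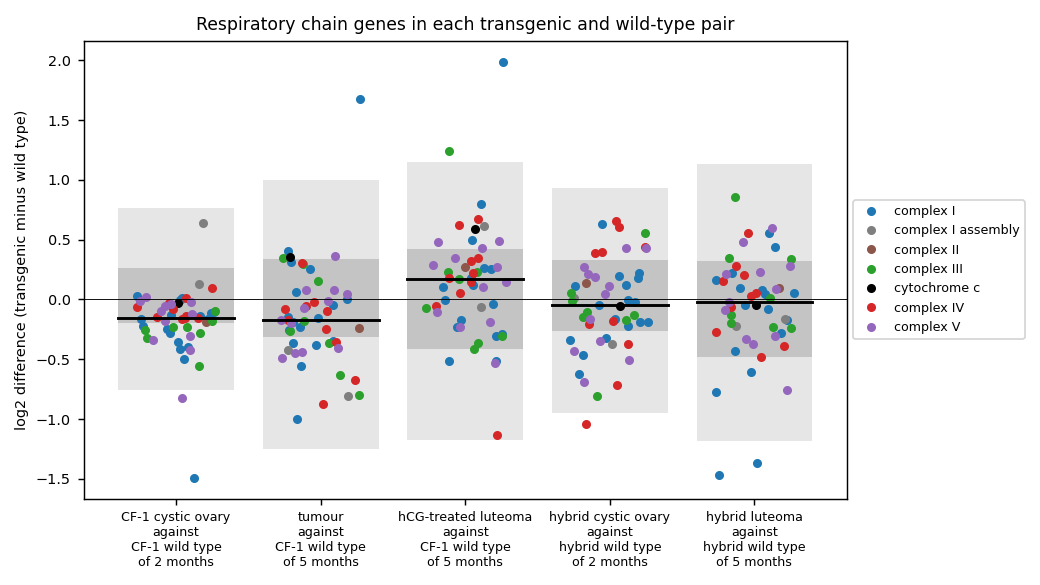
Log2 difference, transgenic minus wild type, of the 51 member genes (points, coloured by complex) in the 5 pairs, with the members' median as a black line and the 5th to 95th (light) and 25th to 75th (dark) percentiles of all 6408 tested probe sets as bands. The members' medians are −0.15, −0.17, 0.17, −0.04 and −0.02, all within the dark bands.

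After scaling, the brightest subunits read low where the top of the array was lowest and high where it was high. The top is the scaled value of the single brightest probe set of an array, so top and bright members share the array's scale factor. On chip A it was that of the macrophage marker Lyz2 in the CF-1 wild type of 5 months (33432.5 units) and in the hybrid luteoma (28288.7 units). Bright members were picked by their share of the top. In all, 13 genes reached at least 50% of an array's highest value: Atp5b, Cox6a1, Cox8a, Cox6c, Ndufb11, Atp5l, Ndufb3, Atp5md, Atp5mpl and Ndufa3 on chip A, and Ndufa1, Cox7c and Cox4i1 on chip B. Atp5b, the catalytic beta subunit, reached 97.1% of it. On chip A the median deviation of the bright genes from their own means was −0.28 on the array with the lowest top, the hybrid wild type of 5 months (21588.9 units), and 0.29 and 0.21 on the arrays with the highest tops, the hybrid cystic ovary (35116.8) and the hCG-treated luteoma (43629.7). On chip B it was −0.36 on the array with the lowest top, the hybrid luteoma (21550.9), and 0.45 and 0.35 at 41486.1 and 55939.3 units, the same 2 conditions. Before scaling, the chip A tops were 30719.4 in the hybrid wild type of 5 months (scale factor 0.703), 26530 in the hybrid cystic ovary (1.32) and 40882.5 after hCG (1.07). The chip B tops were 27342.6 in the hybrid luteoma (0.788), 38448.8 after hCG (1.08) and 41833.2 in the hybrid cystic ovary (1.34). The order of the chip A tops thus differed before and after scaling.

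Bright and other genes differed most in the hybrid cystic pair, with medians of 0.39 and −0.16. The values were −0.10 and −0.17 in the CF-1 cystic pair, −0.17 and −0.18 in the tumour pair, 0.10 and 0.17 in the hCG pair and 0.16 and −0.08 in the hybrid luteoma pair. For genotype the medians were 0.06 and −0.12, and for strain 0.05 and 0.16. The part of the array tops and of the shared scale factors in the values of the bright members was not tested.

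**Figure D4:**
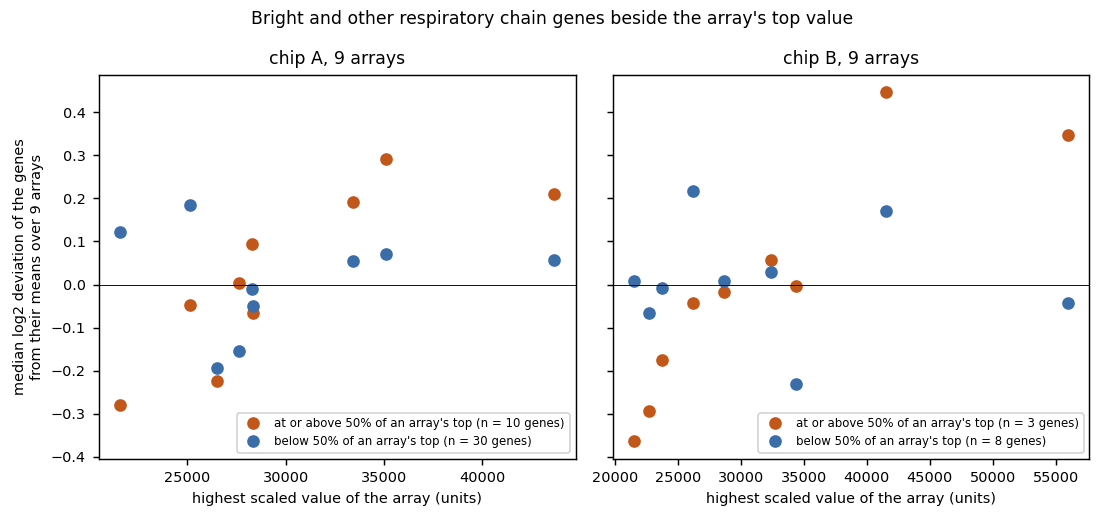
Median log2 deviation of bright and of other member genes from their own means (vertical axis) on each array, against the highest scaled value of that array in units (horizontal axis), for chip A and chip B. The bright genes run from −0.28 to 0.29 on chip A and from −0.36 to 0.45 on chip B, lowest on the array with the lowest top of each chip type.

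Genes of neighbouring mitochondrial pathways and of glycolysis had 0 adjusted calls in every list below for genotype, age and strain. Of all tested probe sets 0%, 0.0156% and 0.0312% were called, so this count cannot set such short lists apart from the chain. Of the tricarboxylic acid cycle and pyruvate dehydrogenase, 10 of 19 genes were tested, with a genotype median of −0.15. Idh2, which makes NADPH in the matrix, was lower by −0.48 at an unadjusted p under 0.05, as were 5.34% of all tested probe sets. At that threshold Dld was lower at 5 months by −0.55 (9.91% of all tested were) and higher in the hybrid by 0.47 (4.32%). Of respiratory chain assembly and mitochondrial biogenesis, 12 of 28 were tested (genotype −0.03). Of the carriers and porins, 6 of 9 were tested, with a genotype median of −0.02. All 6 were lower at 5 months, with a median of −0.37. Among all tested probe sets the age difference was above 0 for 47.9%. Vdac1, the main porin of the outer membrane, differed by −0.83 with age (adjusted p = 0.133) and Vdac3 by −0.40 (adjusted p = 0.237).

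Fatty acid oxidation had 12 of 16 genes tested. The genotype median was −0.14. The age median was −0.27, with 10 of 12 below 0, against −0.02 for all tested probe sets. At an unadjusted p under 0.05, 3 genes were higher in the hybrid (4.32% of all tested were), Decr1 by 0.83, Acadl by 0.50 and Etfb by 0.37. Glycolysis had 11 of 17 tested, with a genotype median of 0.10. Pgam1 was higher in transgenic ovaries by 0.45 at an unadjusted p under 0.05, as were 4.68% of all tested probe sets. At the same threshold Slc2a1 was lower at 5 months by −0.79, as were 9.91% of all tested. In the tumour pair the glycolysis median was 0.29, that of fatty acid oxidation −0.28 and that of the chain −0.17. The other mitochondrial lists went both ways in this pair. Their medians were 0.22 for the tricarboxylic acid cycle, 0.33 for assembly and biogenesis, 0.19 for carriers and porins, and −0.40 for chaperones and antioxidant enzymes. In the hybrid cystic pair glycolysis stood at 0.48.

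The mitochondrial chaperones and antioxidant enzymes, 7 of 11 tested, had medians of 0.08 for genotype and −0.27 for age. Sod2 was higher in the hybrid by 0.57 at an unadjusted p under 0.05, as were 4.32% of all tested probe sets. The 3 tested genes of mitochondrial steroid synthesis, of 4, were Star, which brings cholesterol into the mitochondrion, Cyp11a1, which cuts its side chain, and Fdx1, which supplies that enzyme with electrons. All 3 were at least 1.5-fold lower in the tumour than in the wild-type CF-1 ovary of that age (13.8% of all tested were). Their median was −1.30, against −0.17 for the respiratory chain in the same pair. In the hCG pair their median was 0.30.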

How the data were processed

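The authors deposited 1 table of intensity values per chip type, linear and background-subtracted, with 13.6% to 30.1% of values below 0 per array. The software and scaling behind them are not given in the sources used here. Chip A holds 6584 and chip B 6595 probe sets, with 3 missing values on chip B. On each chip 55 control probe sets and 21 present on both chips were left out. Genes come from the platform annotation (5560 probe sets with 1 symbol, 197 with several and 827 with none on chip A, and 2001, 27 and 4567 on chip B), updated by Entrez number to RefSeq symbols of GRCm38.p6 for 7544 of 7561 entries and all 68 members.

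Each chip type was scaled to the mean of its arrays' trimmed means (2nd to 98th percentile). For the floor, each array gave the higher of its 25th percentile and the size of its 5th, and the median of these was used. Values were raised to this floor, which understates differences of dim probe sets, and log2 was then taken. The 8 untreated conditions were fitted by limma 3.58.1 in R 4.3.3 (lmFit, eBayes) with additive terms for genotype, strain and age, 4 residual degrees of freedom, and p-values adjusted by Benjamini-Hochberg over 4122 probe sets of chip A and 2286 of chip B. The step was tested on simulated data. Other steps used Python 3.11.15, pandas 2.3.3 and numpy 2.4.6. Counts are over probe sets, and medians over the brightest tested probe set per gene. The number of arrays limits the precision.

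The members and lists were chosen with earlier results of these data known. Members named with all their values were the 5 with the lowest p per effect, those at least 1.5-fold beyond every other array in the tumour or in both luteomas, the 4 with the largest and the 4 with the smallest range, isoform pairs of complex IV, the Sdh genes, Cycs and Cyc1. Uqcrq, Uqcr10, Uqcrc2, Uqcrfs1, Atp5c1, Atp5a1 and Ndufv1 were added after their values were seen. Alternatives tried were quantile normalization, scaling to a common median, a doubled floor, a floor of 20 units, no filter, trend and robust variances, 2-fold in place of 1.5-fold and each condition left out. Leaving out the bright members and the block of 4 strain and age pairs were chosen after seeing the data.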

Additional observations from a re-analysis of the deposited data

Results flagged for a closer look

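In 25 named probe sets, 50 groups of 4 conditions were examined for a value far from the others (Dixon's 95% critical value for 4), and chance gives about 1 in 20 such groups. There were 3. Ndufb5 in the hybrid cystic ovary read 6066.08 units, above the other transgenic ovaries at 4891.64 to 4994.98. Cox8a in the hybrid wild type of 5 months read 14285.3 units, below the other wild types at 17835.9 to 18448.7. Cox8a in the hybrid cystic ovary read 23571.7 units, above the other transgenic ovaries at 15882.9 to 16718.1. Cox8a is one of the bright members, and on chip A these 2 arrays have, after scaling, the lowest top (21588.9 units) and the second highest (35116.8 units). The part of the top and of the scale factor in the Cox8a values was not tested.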

How the results depend on the processing

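No alternative called a member for genotype, age or strain. Of the values of summary results 161 stayed close to the reported ones and 45 moved, and all 215 of named members kept their direction and side of the threshold, though not their size. No named member was called in the main fit, so none could lose a call, and the side of the threshold says only that none gained one. The medians of the members, which have no test, changed sign with scaling to a common median in the hybrid luteoma pair and, for age, without the hybrid wild type of 5 months or the cystic ovary of that strain. At 2-fold the counts of members were 1 in the CF-1 cystic pair (all tested 2.95% higher and 2.79% lower), 2 in the tumour pair (5.04% and 7.1%), 4 in the hCG pair (7.38% and 6.98%), 1 in the hybrid cystic pair (4.35% and 4.43%) and 2 in the hybrid luteoma pair (6.57% and 8.27%), and 0 beyond every other array in the tumour, where quantile normalization gave 0 and scaling to a common median 2. The median in the hCG pair was 0.0751 with quantile normalization. That of the hybrid cystic pair was −0.16 without the bright members, −0.15 with quantile normalization and −0.14 with scaling to a common median. That of the hybrid luteoma pair was −0.0944 with quantile normalization and 0.0687 with scaling to a common median. Probe sets called for age were 3 with no filter, 0 with a doubled floor, quantile normalization, scaling to a common median or trend and robust variances, and 0 to 254 with a condition left out. For genotype they were 6 with scaling to a common median, 8 with trend and robust variances and 0 to 7 with a condition left out. For strain they were 6 with no filter, 1 with a floor of 20 units, scaling to a common median or trend and robust variances, 0 with a doubled floor and 0 to 1 with a condition left out. The cause was not tested. By replicate number, no paired analysis was possible because the labels give none. Strain and age do match 4 pairs, and with these pairs as a block (chosen after seeing the data, 3 residual degrees of freedom) limma called 0 probe sets and 0 members for genotype. Dim members are limited by signal over background.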
